A study of Mus musculus with 8 samples.

Results

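The mitochondrial ribosomal proteins were followed through the left ventricle of dystrophin-deficient mice. They were taken as every protein coding gene in the deposited table whose symbol begins with Mrps or Mrpl and a number, which gave 77 of 14578 genes and 226 of 33027 transcripts. The mdx mice (n = 3 libraries), a heart failure model, lack dystrophin. The mdx sln+/- mice (n = 3 libraries) lack dystrophin and are also heterozygous for sarcolipin, an inhibitor of the calcium pump of the sarcoplasmic reticulum. The WT mice (n = 2 libraries) carry neither change. The left ventricles of all 3 genotypes were taken at 6 months of age on a C57 background. Total RNA of 8 libraries was sequenced. The labels do not say whether the libraries of a genotype came from separate animals, so the p-values measure the spread between libraries.

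Mitochondria carry their own ribosome, built from rRNAs that the mitochondrial genome encodes and from proteins that the nucleus encodes and the cytosol makes. It translates the few respiratory chain subunits encoded in mitochondrial DNA, and the heart, which runs on oxidative phosphorylation, depends on them. The small subunit reads the mRNA and the large subunit forms the peptide bond. By symbol, 27 of the 77 genes were grouped with the small subunit and 50 with the large, with Mrps18a and Mrps30 counted in the large subunit, where structures place their products. The small subunit group includes Mrps36, whose product is now known as a component of the 2-oxoglutarate dehydrogenase complex and was first taken for a ribosomal protein. By ribosomal protein nomenclature, 45 of the 77 genes were counted as having a bacterial homologue and 32 as having none. Homology outside that nomenclature was not searched, and the terms are used in this sense below.

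Dmd, the gene that mdx mice lack in function, had log2 levels of 4.22 to 4.32 in mdx, 4.09 to 4.25 in mdx sln+/- and 6.60 to 6.98 in WT libraries, as the labels give the genotypes. The 10 cardiomyocyte markers were all in the table and none passed the test, with a summed abundance of 53222 to 57471 in mdx, 53592 to 56973 in mdx sln+/- and 49569 to 51730 in WT libraries. Macrophage markers summed to 192 to 237 in mdx, 208 to 226 in mdx sln+/- and 135 to 143 in WT libraries, and 5 of 8 rose in each comparison with WT. Fibroblast markers summed to 706 to 863 in mdx, 697 to 777 in mdx sln+/- and 596 to 709 in WT libraries, and 1 of 7 rose in each. Of 3 atrial markers in the table, Nppa (1.12 ± 0.27) and Gja5 (0.45 ± 0.09) rose in mdx and none passed in mdx sln+/-. Stard10 went the other way in mdx, at -0.83 ± 0.23, and did not pass (limma adjusted p = 0.0532). Atrial sums were 515 to 704 in mdx, 494 to 675 in mdx sln+/- and 241 to 389 in WT libraries. Of 6 endothelial markers, 2 rose and 1 fell in mdx and 2 rose in mdx sln+/-, with sums of 532 to 592 in mdx, 554 to 592 in mdx sln+/- and 494 to 536 in WT libraries. Among 3 skeletal muscle markers Acta1 fell, at -1.34 ± 0.29 in mdx and -1.96 ± 0.29 in mdx sln+/-. Ckm had 0.25 ± 0.11 and 0.36 ± 0.11 in the same comparisons, and Mybpc2 0.41 ± 0.23 and -0.04 ± 0.23, without passing. The 1 lymphocyte marker in the table rose in both. Skeletal muscle sums were 1649 to 1690 in mdx, 1717 to 1785 in mdx sln+/- and 1502 to 1786 in WT libraries, and the lymphocyte marker lay at 4.36 to 7.52 in mdx, 6.49 to 6.63 in mdx sln+/- and 3.14 to 3.18 in WT libraries. Of 6 smooth muscle and pericyte markers 1 rose in mdx, with sums of 611 to 807 in mdx, 608 to 761 in mdx sln+/- and 562 to 564 in WT libraries, and of the 5 blood markers and the 1 adipocyte marker none passed. The part of these shifts in the results below was not tested, and in bulk tissue fewer cells of a type and less RNA per cell cannot be told apart. Y-linked genes set WT 2 and mdx sln+/- 3 apart. Ddx3y had log2 levels of 6.15, 4.57 and 6.37 in mdx, 3.94, 4.66 and 1.76 in mdx sln+/-, and 6.64 and 1.29 in WT libraries, and Eif2s3y, Kdm5d and Uty were also lowest in those 2 libraries. Summed abundances of the libraries ranged from 780262 to 924253, and their depth in reads is unknown.

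Promoter stretches of called genes show what the members carry upstream of their starts. NRF1 and ETS factors such as GABP are known regulators of nuclear genes for mitochondrial proteins. RefSeq promoters (GRCm38.p6) were at hand for 68 members. In the 250 bases before the start, on either strand, the NRF1 motif (GCGC, any base, then TGCGC) stood in 10 of 68 members (14.7%) and in 870 of 9507 tested genes (9.15%). The string CCGGAAG, here called the ETS core, stood in 18 members (26.5%) and in 1476 tested genes (15.5%). The YY1 motif AAGATGGCG stood in 2 members (2.94%) and in 134 tested genes (1.41%). The stretches below run from 250 to 31 bases before the start, 5′ to 3′ on the strand of the gene, with a motif in capitals. Mrpl12 (chr11:120484387-120484606, plus strand) holds the NRF1 motif 81 bases before its start, and Mrpl52 (chr14:54426659-54426878, plus strand) the ETS core 47 bases before its start. Mrpl16 (chr19:11770165-11770384, plus strand), which fell, holds none of the 3 exact strings searched. Other forms of these sites were not searched in any gene.
Mrpl12: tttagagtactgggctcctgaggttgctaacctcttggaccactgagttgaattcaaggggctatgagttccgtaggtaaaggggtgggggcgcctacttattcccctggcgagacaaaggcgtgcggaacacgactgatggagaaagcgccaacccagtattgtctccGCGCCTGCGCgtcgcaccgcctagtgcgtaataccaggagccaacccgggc
Mrpl52: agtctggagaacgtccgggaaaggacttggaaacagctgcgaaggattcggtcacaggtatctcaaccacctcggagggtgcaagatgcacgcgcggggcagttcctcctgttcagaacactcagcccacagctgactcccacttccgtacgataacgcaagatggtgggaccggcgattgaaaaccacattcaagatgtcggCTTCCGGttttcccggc
Mrpl16: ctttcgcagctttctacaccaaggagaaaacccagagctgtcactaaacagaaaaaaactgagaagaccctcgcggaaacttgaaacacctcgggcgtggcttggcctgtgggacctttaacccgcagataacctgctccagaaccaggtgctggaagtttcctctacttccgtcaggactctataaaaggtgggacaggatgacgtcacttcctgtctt
Of the other called members with an entry, Mrpl27 holds the ETS core 55 bases before its start and Mrpl43 holds it 56 and 12 bases before. Mrpl33, Mrps24, Mrps36 and Mrps6 hold none of the 3. The RefSeq promoters of Mrpl33 and Mrps24 lie inside the gene spans given below, so they do not precede the starts of those spans. A motif match, or the lack of a match, is a description of these exact letters only.

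Levels are log2(abundance + 1), where the abundance of a gene is the sum over its transcripts. The mean levels of the members ran from 3.36 to 7.01 with a median of 5.03, against a median of 3.74 over all genes tested. The median SD of the members was 0.07 in mdx, 0.03 in mdx sln+/- and 0.07 in WT libraries, against 0.10, 0.07 and 0.10 over all genes. Their summed abundance made up 0.327 to 0.360% of each library's total. Each library was also set against the members' own means over all 8 libraries. The median deviation of the 77 genes was -0.08 in mdx 1 and 0.05 in mdx 3, 0.04 to 0.06 in the mdx sln+/- libraries, and -0.11 in WT 2. Of the members, 17, 37 and 61 lay above their mean in the mdx libraries, 60, 52 and 59 in the mdx sln+/- libraries, and 39 and 19 in the WT libraries. By median deviation and median SD, the mdx sln+/- libraries lay closer together than the mdx libraries or the WT libraries did. By share of the total, the WT libraries lay closest (0.327 and 0.337%, with 0.338 to 0.356% in mdx sln+/-). The mean of mdx 2 and mdx sln+/- 2 was tied to that of the other 4 libraries without dystrophin before deposit. These 2 libraries therefore do not vary freely, which limits the SDs here and the group overlaps below.

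In mdx against WT ventricles, few mitochondrial ribosomal protein genes passed the test, at a share near that of all genes. limma called 7 members higher and 2 lower at an adjusted p under 0.05, and 68 did not pass. That is 11.7% of the members, where 15.1% of all 13783 genes tested were called (8.15% higher and 6.94% lower), so the share lies near the background. The median log2 fold change was 0.03 over the members and 0.02 over all genes, and the members ranged from -0.48 to 0.56. In the small subunit group Mrps6 and Mrps36, 2 of 27 genes, were called, both higher, and in the large subunit 5 of 50 were higher and 2 lower. The values of the groups did not overlap for 32 members (41.6%, with 51.4% of all genes), 22 of them higher (27.8% of all genes) and 10 lower (23.6%).

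In mdx sln+/- against WT ventricles, 7 members rose, 1 fell and 69 did not pass. This was 10.4% of the members, with 15.9% of all genes called (9.41% higher and 6.50% lower). The median log2 fold change was 0.11 over the members and 0.05 over all genes. Under median-ratio scaling the members' median was 0.06. That scaling moves the median over all genes as well, so 0.06 is not to be read against 0.05. By the nomenclature, 5 of the 45 genes with a bacterial homologue and 4 of the 32 with none, Mrps36 among them, were called in mdx, and 6 and 2 in mdx sln+/-. In the small subunit group Mrps6, Mrps24 and Mrps36, 3 of 27, rose in mdx sln+/-, and in the large subunit 4 of 50 rose and 1 fell. The groups did not overlap for 53 members (68.8%, with 59.8% of all genes), 42 of them higher (36.4% of all genes) and 11 lower (23.5%). Both comparisons use the same WT libraries, so their values stand side by side and are not independent of each other. Library names came in 2 styles, and both WT libraries are of the plain style, with 1 mdx and 1 mdx sln+/- library. With 1 library in each of these 2 genotypes, the fit has little basis for the spread, so its calls are not counted. The members' medians within these 4 libraries were 0.08 in mdx and 0.11 in mdx sln+/-. In mdx, Mrpl15 had -0.46, Mrpl16 -0.35 and Mrps36 0.73 there, beside -0.47, -0.48 and 0.56 in all libraries. With the style as a term, 2 members were called in mdx and 3 in mdx sln+/-.

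The calls also depended on which libraries were fitted. Only that of Mrpl15 in mdx was kept in all 8 fits that left out 1 library. Without WT 2 and mdx sln+/- 3, which had the lowest Y-linked levels, WT 1 was the only WT library, so calls are not counted. In mdx, Mrpl15 had -0.50, Mrpl16 -0.61 and Mrps36 0.46 in that fit. Mrpl55 had 0.93 there, a value set by WT 1, which lay at 4.61 beside 5.41 in WT 2. Leaving out either WT library alone also leaves 1 WT library, which limits the counts that follow. Leaving out 1 library gave, for mdx against WT, 6 members without WT 1, 2 without WT 2, 3, 4 and 2 without mdx 1, 2 and 3, and 1, 4 and 2 without mdx sln+/- 1, 2 and 3. For mdx sln+/- against WT it gave 4 members without WT 2, 13 without mdx 1, 0 without mdx sln+/- 1 and 2 without mdx sln+/- 3, and 7 or 8 without any of the other 4.

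**Figure D1:**
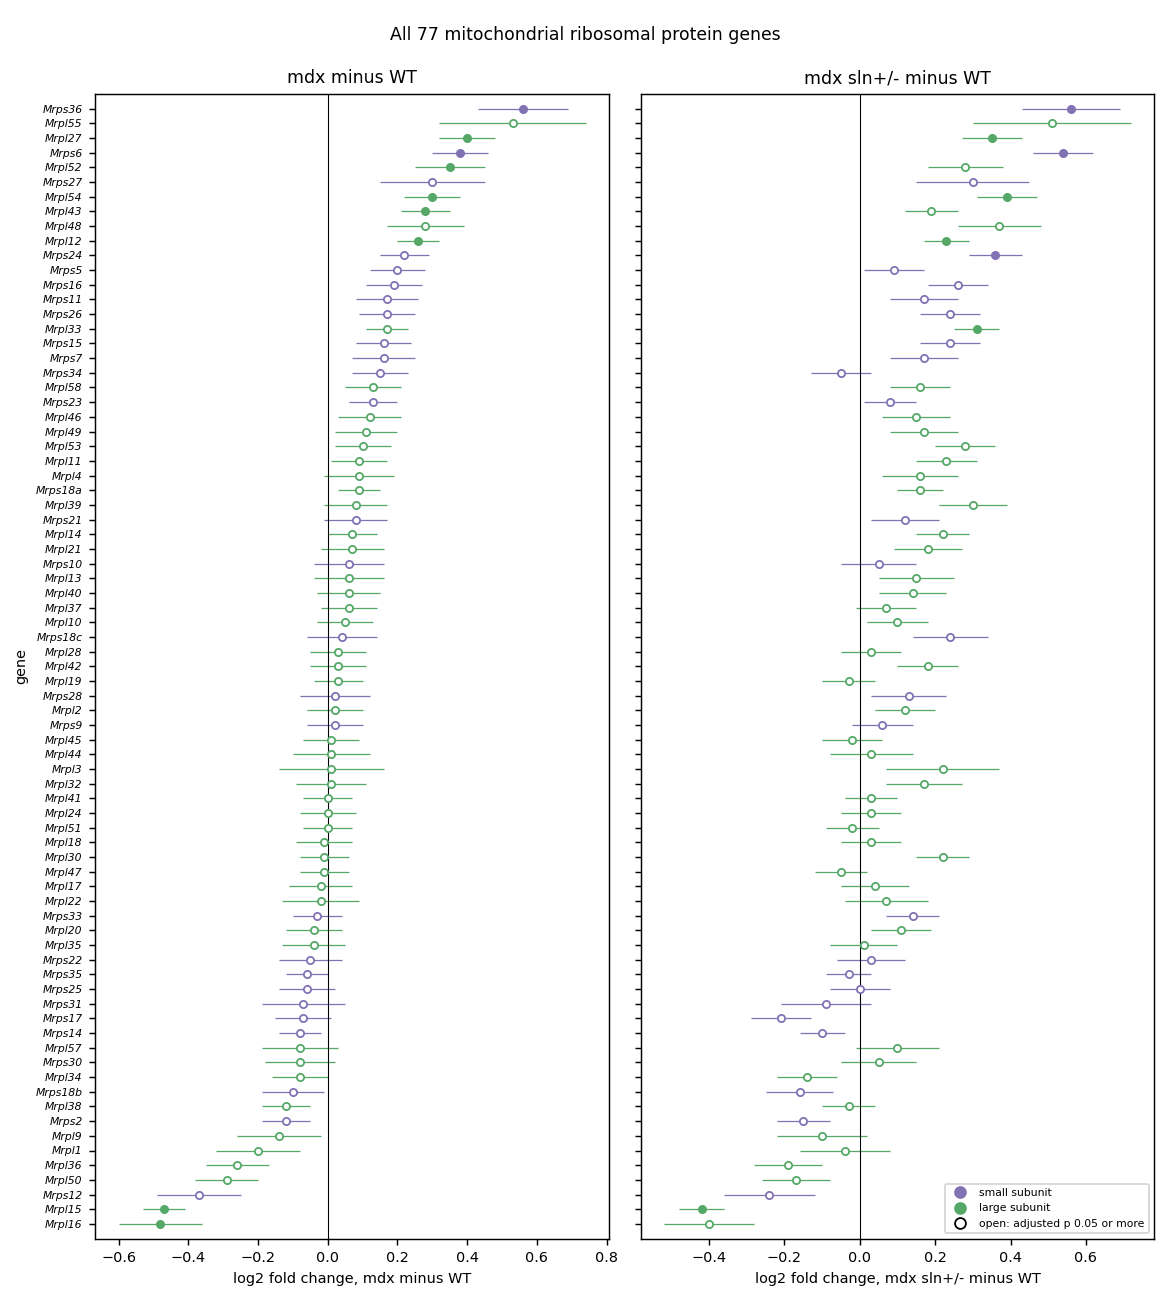
Log2 fold changes (x axis, points with standard errors) of all 77 genes (y axis) in mdx minus WT, left, and mdx sln+/- minus WT, right. Filled points have an adjusted p under 0.05: 9 genes on the left and 8 on the right, and most other points lie near 0.

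Among the genes that fell, Mrpl15 (chr1:4773206-4785739, minus strand), a large subunit protein with a bacterial homologue, had log2 levels of 5.49, 5.54 and 5.53 in the mdx ventricles, 5.58, 5.55 and 5.58 in the mdx sln+/- ventricles, and 6.02 and 5.96 in the WT ventricles. Every mdx and mdx sln+/- library lay below both WT libraries. The log2 fold change was -0.47 ± 0.06 (SE) in mdx, 0.722 times the WT level with an adjusted p of 0.00710 by limma, and -0.42 ± 0.06 in mdx sln+/- (adjusted p = 0.00867). The call in mdx was kept in all 8 fits that left out 1 library, and that in mdx sln+/- was lost without mdx sln+/- 1 (adjusted p = 0.0628). Most of its abundance lay in transcripts that are not protein coding. The processed transcript Mrpl15-202 held 69.4% of the abundance and had log2 levels of 4.96, 5.02 and 5.03 in mdx, 5.07, 5.04 and 5.06 in mdx sln+/-, and 5.52 and 5.43 in WT libraries. It changed by -0.47 ± 0.08 in mdx (limma adjusted p over 29021 transcripts = 0.0195) and -0.42 ± 0.08 in mdx sln+/- (adjusted p = 0.0239). Mrpl15-201, annotated for nonsense-mediated decay, held 20.9% and changed by -0.45 ± 0.10 in mdx (adjusted p = 0.0335). The sum over the coding transcripts alone changed by -0.07 ± 0.16 in mdx (adjusted p = 0.807) and -0.10 ± 0.16 in mdx sln+/- (adjusted p = 0.686), at a low level where this scale understates a change.

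Mrpl16 (chr19:11770391-11774960, plus strand), a large subunit protein with a bacterial homologue, has 1 transcript in the table. Its log2 levels were 4.92, 5.15 and 5.23 in the mdx ventricles, 5.18, 5.13 and 5.22 in the mdx sln+/- ventricles, and 5.71 and 5.45 in the WT ventricles. All mdx and mdx sln+/- libraries lay below both WT libraries. It fell in mdx, by 0.48 ± 0.12 on the log2 scale (adjusted p = 0.0409), and its value in mdx sln+/- was -0.40 ± 0.12 (adjusted p = 0.0645). The call in mdx was kept without mdx 3 and lost in the other 7 fits that left out 1 library (adjusted p 0.0541 to 0.144), and it was also lost with the second column of each library alone (-0.44, adjusted p = 0.0690).

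**Figure D2:**
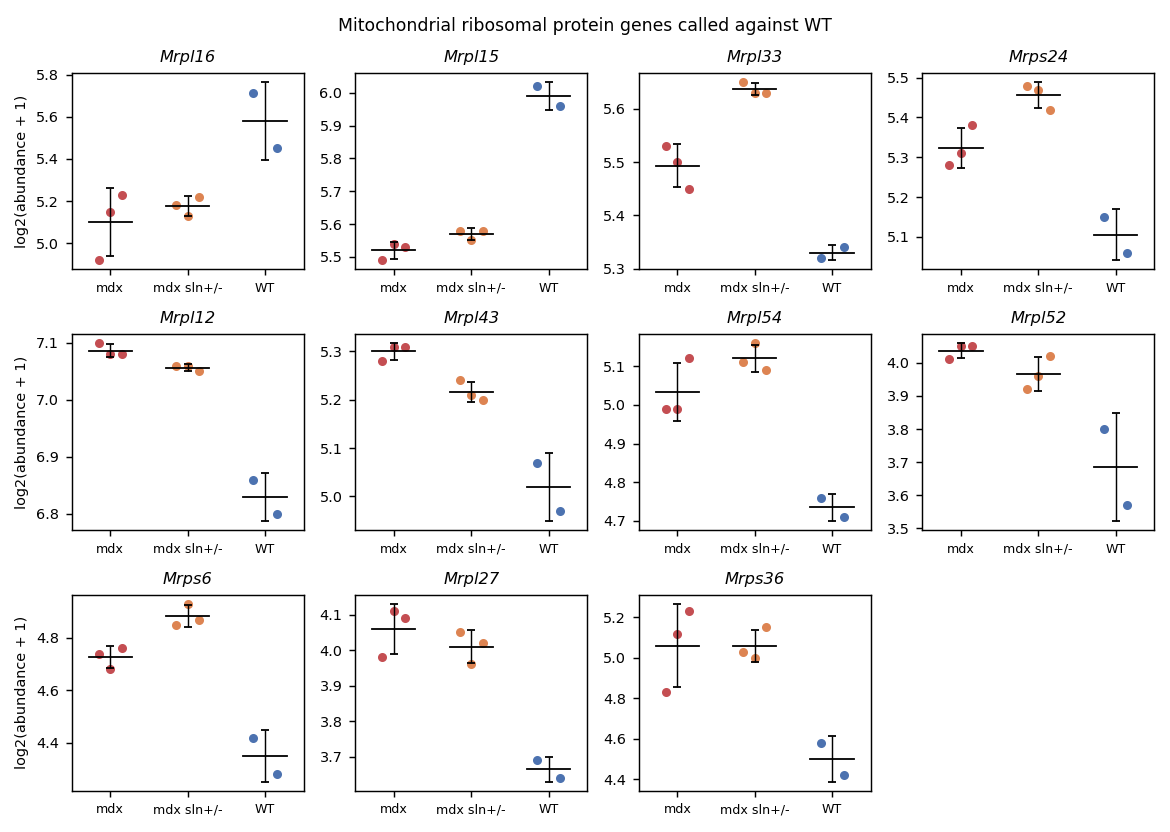
Log2(abundance + 1) per library (y axis) for the 11 members called in either comparison with WT, by genotype (x axis). Points are libraries, lines with bars are the mean and SD, y axes do not start at 0, and Mrpl15 and Mrpl16 are the panels with WT on top.

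Among the genes grouped with the small subunit, Mrps6 (chr16:92058270-92112227, plus strand), with a bacterial homologue, had log2 levels of 4.74, 4.68 and 4.76 in the mdx ventricles, 4.85, 4.93 and 4.87 in the mdx sln+/- ventricles, and 4.42 and 4.28 in the WT ventricles. The mdx sln+/- libraries lay highest, the mdx libraries next and the WT libraries lowest, with no overlap. It rose by 0.54 ± 0.08 in mdx sln+/-, 1.45 times the WT level (adjusted p = 0.00817), and by 0.38 ± 0.08 in mdx (adjusted p = 0.0223). The call in mdx sln+/- was lost without mdx sln+/- 1 (adjusted p = 0.0537), and that in mdx in 4 of 8 such fits, without WT 2, mdx 1, mdx 3 or mdx sln+/- 1. Its exons overlap Slc5a3 and Gm49711 on the same strand, so reads could be shared.

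Mrps36 (chr13:100735955-100744659, minus strand) encodes the protein of the 2-oxoglutarate dehydrogenase complex named above. Its log2 levels were 4.83, 5.12 and 5.23 in the mdx ventricles, 5.03, 5.00 and 5.15 in the mdx sln+/- ventricles, and 4.58 and 4.42 in the WT ventricles, and no library with the mdx change reached down to WT. It rose by 0.56 ± 0.13 in mdx (adjusted p = 0.0334) and 0.56 ± 0.13 in mdx sln+/- (adjusted p = 0.0326). Its processed pseudogenes Mrps36-ps1 and Mrps36-ps2, 97.386% and 97.087% identical over 53% of the transcript, rose too, by 0.52 and 0.70 in mdx (adjusted p = 0.0239 and 0.0169), so the gene's own value is uncertain. In mdx sln+/- the call was lost over coding transcripts alone (0.41, adjusted p = 0.0599), and it was lost in both with the most abundant transcript (0.53 in mdx and 0.36 in mdx sln+/-, adjusted p = 0.0694 and 0.172) and with the second column of each library (0.39 and 0.35, adjusted p = 0.254 and 0.289). The call in mdx was kept only without mdx 1 among the 8 fits that left out 1 library, and that in mdx sln+/- was lost without WT 1, WT 2, mdx sln+/- 1 or mdx sln+/- 3.

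Mrps24 (chr11:5703983-5715680, minus strand), with a bacterial homologue, had log2 levels of 5.28, 5.31 and 5.38 in the mdx ventricles, 5.48, 5.47 and 5.42 in the mdx sln+/- ventricles, and 5.15 and 5.06 in the WT ventricles. All libraries with the mdx change lay above WT, with mdx sln+/- highest. It rose in mdx sln+/- by 0.36 ± 0.07 (adjusted p = 0.0199), and its value in mdx was 0.22 ± 0.07 (adjusted p = 0.082). Of its abundance, 86.7% lay in the retained intron transcript Mrps24-201 and 1.27% in a coding transcript, and its exons overlap Urgcp on the same strand. The call was lost without WT 2, mdx sln+/- 1 or mdx sln+/- 3.

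In the large subunit, Mrpl27 (chr11:94653767-94660089, plus strand), whose bacterial homologue sits at the peptidyl transferase centre, had log2 levels of 3.98, 4.11 and 4.09 in the mdx ventricles, 4.05, 3.96 and 4.02 in the mdx sln+/- ventricles, and 3.69 and 3.64 in the WT ventricles. WT libraries lay lowest. It rose by 0.40 ± 0.08 in mdx (adjusted p = 0.0227) and 0.35 ± 0.08 in mdx sln+/- (adjusted p = 0.0338). Its coding transcript Mrpl27-201, 79.3% of the abundance, rose by 0.48 ± 0.12 in mdx (adjusted p = 0.0439). With the first column alone the calls were lost (0.28 in mdx and 0.31 in mdx sln+/-, adjusted p = 0.118 and 0.0928), and with the second that in mdx sln+/- (adjusted p = 0.0759). The pseudogene Gm6304 is 98.881% identical over 59% of its transcript, and the call in mdx was kept only without mdx 1, mdx 2 or mdx sln+/- 2, and that in mdx sln+/- was lost without WT 1, WT 2, mdx sln+/- 1 or mdx sln+/- 3.

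Mrpl54 (chr10:81264713-81266934, minus strand), with no bacterial homologue, had log2 levels of 4.99, 4.99 and 5.12 in the mdx ventricles, 5.11, 5.16 and 5.09 in the mdx sln+/- ventricles, and 4.76 and 4.71 in the WT ventricles. It rose by 0.39 ± 0.08 in mdx sln+/- (adjusted p = 0.0181) and 0.30 ± 0.08 in mdx (adjusted p = 0.0392). The call in mdx sln+/- was lost without WT 2, mdx sln+/- 1 or mdx sln+/- 3, and that in mdx was kept only without mdx 2 or mdx sln+/- 2. That in mdx was also lost with the second column alone (adjusted p = 0.0556), with the most abundant transcript (adjusted p = 0.0549) and with the replicate block (adjusted p = 0.0509).

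Mrpl12 (chr11:120484613-120489065, plus strand), the stalk protein of the large subunit, had log2 levels of 7.10, 7.08 and 7.08 in the mdx ventricles, 7.06, 7.06 and 7.05 in the mdx sln+/- ventricles, and 6.86 and 6.80 in the WT ventricles. Its libraries were tight within each genotype, with WT lowest. It rose by 0.26 ± 0.06 in mdx (adjusted p = 0.0309) and 0.23 ± 0.06 in mdx sln+/- (adjusted p = 0.0429). Leaving out any 1 library lost the call in mdx (adjusted p 0.0522 to 0.114), and that in mdx sln+/- was kept only without mdx 1. That in mdx sln+/- was also lost under median-ratio scaling (0.18, adjusted p = 0.0854), upper-quartile scaling (0.21, adjusted p = 0.0650) and with either column alone (adjusted p = 0.0604 and 0.0512), and that in mdx with the second column alone (adjusted p = 0.0536).

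Mrpl33 (chr5:31596935-31664384, plus strand), with a bacterial homologue, had log2 levels of 5.53, 5.50 and 5.45 in the mdx ventricles, 5.65, 5.63 and 5.63 in the mdx sln+/- ventricles, and 5.32 and 5.34 in the WT ventricles. It rose in mdx sln+/- by 0.31 ± 0.06 (adjusted p = 0.0218), and its value in mdx was 0.17 ± 0.06 (adjusted p = 0.120). The call was lost without WT 1, WT 2, mdx sln+/- 1 or mdx sln+/- 3. Its exons overlap Gm43809 on the same strand, so reads could be shared.

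Mrpl43 (chr19:45004829-45006442, minus strand), with no bacterial homologue, had log2 levels of 5.28, 5.31 and 5.31 in the mdx ventricles, 5.24, 5.21 and 5.20 in the mdx sln+/- ventricles, and 5.07 and 4.97 in the WT ventricles. It rose in mdx by 0.28 ± 0.07 (adjusted p = 0.0357), with a value of 0.19 ± 0.07 in mdx sln+/- (adjusted p = 0.0962). Its exons share 507 bases with Twnk, the mitochondrial helicase gene on the other strand, and whether reads were counted by strand is not given. The call was kept only without WT 1, and it was lost with the second column alone (adjusted p = 0.0728) and with the most abundant transcript (adjusted p = 0.0504).

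Mrpl52 (chr14:54426909-54429756, plus strand), with no bacterial homologue, had log2 levels of 4.01, 4.05 and 4.05 in the mdx ventricles, 3.92, 3.96 and 4.02 in the mdx sln+/- ventricles, and 3.80 and 3.57 in the WT ventricles. It rose in mdx by 0.35 ± 0.10 (adjusted p = 0.0494), with 0.28 ± 0.10 in mdx sln+/- (adjusted p = 0.0877), and the call was kept only without WT 1. It was also lost with either column alone (adjusted p = 0.0865 and 0.0998), with no filter on low values (adjusted p = 0.0515) and with the replicate block (adjusted p = 0.0593). Its coding transcript Mrpl52-201, 61.4% of the abundance, changed by 0.04 ± 0.13 in mdx (adjusted p = 0.877). The retained intron transcript Mrpl52-205 had log2 levels of 2.51, 2.52 and 2.58 in mdx, 2.26, 2.35 and 2.39 in mdx sln+/-, and 1.49 and 1.54 in WT libraries. It rose by 1.02 ± 0.13 in mdx (adjusted p = 0.00813) and 0.82 ± 0.13 in mdx sln+/- (adjusted p = 0.0128).

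**Figure D3:**
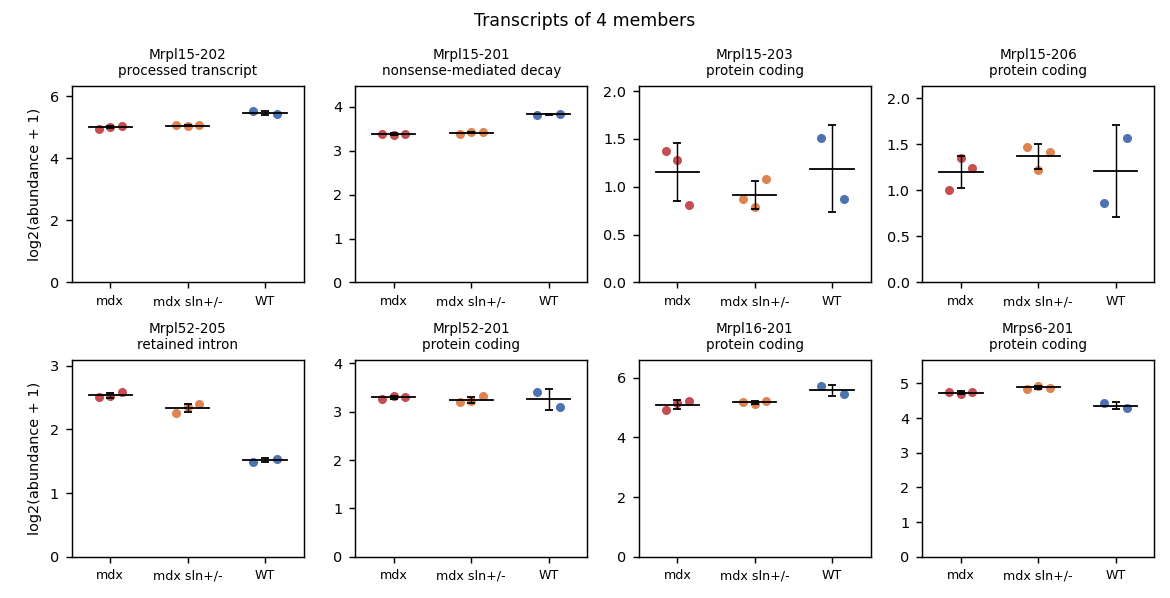
Log2(abundance + 1) of 8 transcripts (y axis, from 0) per library by genotype (x axis), with mean and SD. Mrpl15-202, Mrpl15-201 and Mrpl52-205 separate from WT, while the coding Mrpl15-203, Mrpl15-206 and Mrpl52-201 overlap WT.

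Transcripts were also tested one by one. Of 226 transcripts 206 were tested, and 6 rose and 3 fell in mdx against WT (4.37%, with 8.29% of all transcripts called), while 10 rose and 3 fell in mdx sln+/- against WT (6.31%, with 10.1%). In genes with no call of their own, the processed transcript Mrps18a-204 rose by 0.89 ± 0.13 in mdx (adjusted p = 0.0111) and 0.92 ± 0.13 in mdx sln+/- (adjusted p = 0.00928). The decay transcript Mrpl48-202 rose by 0.86 ± 0.18 in mdx (adjusted p = 0.0334), and the coding Mrps21-201 by 0.47 ± 0.11 (adjusted p = 0.0447). The most abundant transcript was not protein coding in 11 members, and coding transcripts held 79.1 to 80.0% of the members' abundance per library, against 91.1 to 91.5% over all coding genes.

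Mrpl3, Mrpl44 and Mrps22, which have been tied to cardiomyopathy in people, did not pass in the gene sums. Mrpl3, a large subunit protein, had log2 levels of 5.75, 5.90 and 6.26 in the mdx ventricles, 6.18, 6.24 and 6.11 in the mdx sln+/- ventricles, and 6.03 and 5.89 in the WT ventricles, with fold changes of 0.01 ± 0.15 in mdx and 0.22 ± 0.15 in mdx sln+/- (adjusted p = 0.968 and 0.336). Its coding transcripts alone changed by -0.39 in mdx (adjusted p = 0.0357). Mrpl44 had 0.01 ± 0.11 in mdx and 0.03 ± 0.11 in mdx sln+/-, and Mrps22, of the small subunit, -0.05 ± 0.09 and 0.03 ± 0.09, none past the threshold. Mrps30 had -0.08 ± 0.10 in mdx and 0.05 ± 0.10 in mdx sln+/-. Of the uncalled members, Mrpl55 had the highest value in mdx, 0.53 ± 0.21 (adjusted p = 0.135), with WT libraries far apart at 4.61 and 5.41, and Mrps12, of the decoding centre, the lowest, -0.37 ± 0.12 (adjusted p = 0.0753). In mdx sln+/- these were 0.51 ± 0.21 and -0.24 ± 0.12 (adjusted p = 0.141 and 0.202).

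In mdx sln+/- against mdx ventricles no member passed, and neither did any of the 13783 genes (0% called by limma). At an unadjusted p under 0.05 there were 7 members (9.09%), 6 higher and 1 lower, with 8.60% of all genes (5.80% higher and 2.81% lower). The members' log2 fold changes ran from -0.20 to 0.22 with a median of 0.06, against 0.03 over all genes. The members' median was 0.02 under median-ratio scaling, -0.01 in the plain-named libraries and 0.09 in the others. In these fits the median over all genes can move too, so they are not to be read against 0.03. In all libraries, 76 of 77 95% intervals lay within 0.5 of 0 on the log2 scale. The highest were Mrpl30 at 0.22 ± 0.06, Mrpl39 at 0.22 ± 0.08 and Mrpl3 at 0.21 ± 0.13, and the lowest Mrps34 at -0.20 ± 0.07, Mrps17 at -0.14 ± 0.07 and Mrps5 at -0.11 ± 0.07. Mrpl30 levels were 5.72, 5.73 and 5.79 in mdx and 6.00, 5.98 and 5.93 in mdx sln+/- libraries. Mrps34 levels were 5.50, 5.51 and 5.34 in mdx and 5.28, 5.19 and 5.27 in mdx sln+/- libraries. Exons of Mrps34 overlap Nme3 on the same strand and Mapk8ip3 on the other. The pseudogene Gm11945 is 95.065% identical over 77% of the Mrpl30 transcript, so reads could be shared in both genes. Groups did not overlap for 26 members (33.8%, with 24.8% of all genes).

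Other lists of mitochondrial genes are read against the 15.1% of all genes called in mdx and the 15.9% called in mdx sln+/-, each against WT. Among 27 mitoribosome assembly genes, Rpusd4 and Mrm2, enzymes that modify mitochondrial RNA, rose in both comparisons with WT (7.41% of the list in each), by 0.57 ± 0.12 and 0.41 ± 0.11 in mdx. Of 16 translation factors, Hemk1, a release factor methyltransferase, rose by 1.51 ± 0.08 in mdx and 1.41 ± 0.08 in mdx sln+/- (limma adjusted p = 2.51e-04 and 2.53e-04). The elongation factor Tufm rose by 0.40 ± 0.09 in mdx sln+/- (adjusted p = 0.0249), with a value of 0.27 ± 0.09 in mdx (adjusted p = 0.0746). The called genes were 6.25% of the list in mdx and 12.5% in mdx sln+/-. Of 22 aminoacyl-tRNA synthetases, Vars2 rose by 0.55 ± 0.10 and Lars2 fell, at -0.87 ± 0.18, in mdx (adjusted p = 0.0165 and 0.0227), and the share called was 9.09% in each comparison. A list of 6 further mitoribosomal proteins held Mrpl58, itself a member, and 5 genes under other symbols, and none passed. Of 19 genes of mitochondrial transcription and RNA processing, Tfb2m fell in both comparisons, at -0.32 ± 0.07 in mdx and -0.25 ± 0.07 in mdx sln+/-. Tbrg4 fell in mdx sln+/-, at -0.32 ± 0.07, with -0.21 ± 0.07 in mdx (limma adjusted p = 0.0951). The called genes were 5.26% of that list in mdx and 10.5% in mdx sln+/-.

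Of 11 regulators of mitochondrial biogenesis, Ppargc1a, the coactivator PGC-1alpha, had -1.65 ± 0.24 in mdx and -1.41 ± 0.24 in mdx sln+/- (adjusted p = 0.00802 and 0.0117). Ppara, a nuclear receptor of fatty acid oxidation, had -0.98 ± 0.14 and -1.07 ± 0.14 in the same comparisons (limma adjusted p = 0.00786 and 0.00641). Gabpb1 rose in mdx sln+/- by 0.32 ± 0.09 (adjusted p = 0.0496), with 0.30 ± 0.09 in mdx (adjusted p = 0.0615). The share called was 18.2% in mdx and 27.3% in mdx sln+/-, and the median over all 11 was 0.04 in mdx and 0.01 in mdx sln+/-. Of 79 cytosolic ribosomal protein genes, 8 rose and 1 fell in mdx and 17 rose and 1 fell in mdx sln+/-, with medians of 0.11 and 0.16. That is 11.4% called in mdx, under the share of all genes, and 22.8% in mdx sln+/-, above it. Of 79 nuclear respiratory chain subunit genes, 3 rose and 1 fell in mdx and 10 rose in mdx sln+/-, with medians of 0.04 and 0.14 and shares of 5.06% and 12.7%. None of these lists had a call in mdx sln+/- against mdx.

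**Figure D4:**
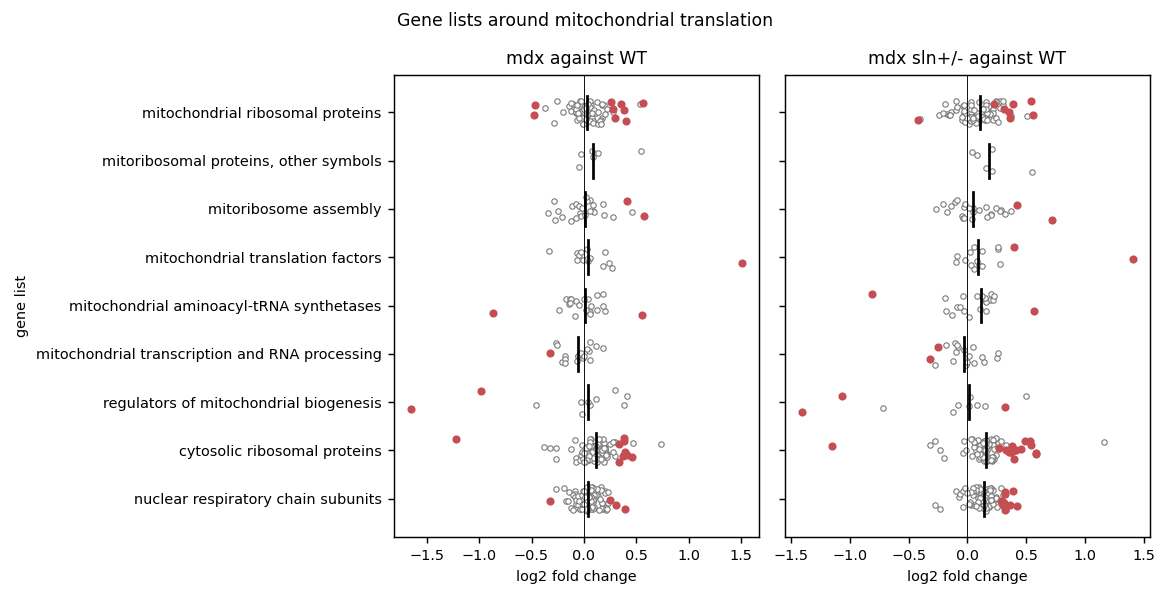
Log2 fold changes (x axis) of the genes of 9 lists (y axis) in mdx against WT, left, and mdx sln+/- against WT, right. Each point is a gene, red where the adjusted p was under 0.05, and black bars are medians, such as 0.03 and 0.11 for the mitochondrial ribosomal proteins. Mrpl58 stands in the top 2 lists, and Lrpprc and Tfam each stand in 2 of the others.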

How the data were processed

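The authors' deposited table holds log2 normalized abundances per transcript, with a pair of columns per library whose meaning is not given. STAR 2.6.1, Partek, limma and the mm10 build are named, per the submitters' processing notes. Scaling, division by length, strand and depth are not given in the sources used here. Both columns of a library (correlation 0.981 to 0.987) were averaged and counted once.

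Values were made linear, summed over the transcripts of a gene and taken to log2(value + 1). Genes reaching 1 in 2 or more libraries were tested (13783, with 795 left out) by limma 3.58.1 in R 4.3.3, with a mean-variance trend and Benjamini-Hochberg adjustment, called under 0.05. Fold changes on this scale understate those of low genes. The libraries mdx 2 and mdx sln+/- 2 averaged the same as the other 4 libraries that lack dystrophin, transcript by transcript (largest difference 5.12e-05), so a term had been removed before deposit. It was kept in the fit, which left 4 residual degrees of freedom; group alone leaves 5. The fit was checked on simulated data. Alternatives were other terms, other sets of libraries, median-ratio and upper-quartile scaling, other filters, another pseudocount, single columns and the most abundant transcript.

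Named members were Mrpl3, Mrpl44, Mrps22, Mrpl12, Mrps30 and Mrps36, all called members, and the 3 highest and 3 lowest fold changes per comparison. The members, lists and motifs were chosen with earlier results of these data known. Coordinates are GENCODE M21 (GRCm38). Copies were sought with blastn 2.17.0 at 95% identity over 40% of a transcript. Fits per transcript and over coding transcripts alone were added after the data were seen. The 30 promoter bases nearest the start, where annotated exons can begin, were searched for motifs and not printed, and promoters overlapping an annotated exon were not printed. Sln levels were not analysed here.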

Additional observations from a re-analysis of the deposited data

How the results depend on the processing

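Counts of calls depended on the fit. With group alone, 3798 genes and 15 members were called in mdx against WT, and 3996 and 22 in mdx sln+/- against WT. With the style of the library names as a term these were 559 and 2, and 711 and 3; in plain-named libraries alone 122 and 0, and 333 and 0; without WT 2 and mdx sln+/- 3, 126 and 1, and 39 and 0. With the compared groups alone, mdx against WT gave 545 genes and 0 members, and with a mean log2 level of at least 3, 1372 genes. The second column of each pair alone gave 3 members in mdx and 5 in mdx sln+/- against WT, and the most abundant transcript 5 in mdx. Leaving out 1 library gave 579 to 1819 genes and 1 to 6 members in mdx against WT, 316 to 2410 genes and 0 to 13 members in mdx sln+/- against WT, and 0 in mdx sln+/- against mdx. The members' median ranged over -0.02 to 0.10, 0.04 to 0.18 and 0.01 to 0.10 in these fits. Median-ratio and upper-quartile scaling left 10 and 9 members called in mdx and 9 and 7 in mdx sln+/- against WT. The median was 0.04 in mdx sln+/- against WT without WT 2 and mdx sln+/- 3, and -0.01 in mdx sln+/- against mdx in plain-named libraries. With the replicate block, 8 and 10 members were called against WT. Deviations of the genes from their genotype means correlated at 0.18 or less between same-numbered libraries. With 2 WT libraries, the deviations of WT 1 and WT 2 are opposite by construction. The term removed before deposit ties mdx 2 to mdx sln+/- 2, so the perfect negative correlation of that pair was built in. Mrpl3 turned to -0.39 in mdx over coding transcripts alone. Where a fit left 1 library numbered 2 in mdx and mdx sln+/-, the removed term absorbed it. The cause of these shifts was not tested. Depth is unknown, so no limit from counting could be given.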
